A study of Mus musculus with 4 samples.

Results

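The mitochondrial protein import machinery was followed through 37 genes chosen by their symbols: the subunits of the TOM and SAM complexes of the outer membrane, of the TIM23 and TIM22 complexes of the inner membrane with their motor and small chaperones, the disulfide relay and the processing peptidase. All 37 were in the deposited table, among 20619 protein-coding genes, and all 37 were among the 10688 of these genes whose mean over the 4 libraries reached 1 FPKM, which were compared. FPKM counts fragments per kilobase of a transcript scaled by the fragment total of its library. It is thus a level per length, so levels of different genes can be set side by side within a library. Ratios of genes compared across libraries carry the trends with transcript length and GC content given below. Levels are sums over the transcripts of a gene. A difference is that of log2(FPKM + 1), knockout minus control, a scale that understates differences of genes with low levels.

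Nearly all mitochondrial proteins are made in the cytosol and imported as unfolded precursors. Precursors enter through the TOM complex of the outer membrane. From there the TIM23 complex and its ATP-driven motor bring proteins with a cleavable targeting sequence into the matrix, the small TIM chaperones carry hydrophobic proteins across the intermembrane space to TIM22 or to SAM, and the disulfide relay traps small cysteine-rich proteins, the small TIMs among them, by oxidation.

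RNA was sequenced from mouse embryonic stem cells, 1 library from the parental line E14Tg2a (strain 129/Ola, the control) and 1 library from each of the 3 knockouts that were derived from that line, Dnm1l-/-, Fis1-/- and Mff-/-. Dnm1l encodes the GTPase Drp1 that constricts mitochondria, and Fis1 and Mff encode outer membrane proteins that act in fission, whose part in mitochondrial shape and energy metabolism is the subject named in the series title. All 4 lines were grown on mouse embryonic fibroblast (MEF) feeder cells with leukemia inhibitory factor and were at passages 30 to 35, and the sources used here do not give the number of clones per knockout. With 1 library per line no difference has a replicate check, no test was made, and the same control library enters all 3 comparisons.

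The spacing of low FPKM values gave an estimated depth of 35300000 to 37800000 fragments per library. The fewest fragments behind the level of an import gene in a library were 214 (Mtx3) and the most 37740 (Hspa9). The counting error of a difference was at most 0.14 (SE, Timm21), which covers counting only and not the spread between cultures. Each targeted gene was lowest in its own knockout. Dnm1l was at 22.9 FPKM in Dnm1l-/- and 35.0 in control, Fis1 at 56.2 in Fis1-/- and 103 in control, and Mff at 11.8 in Mff-/- and 28.9 in control. The sources used here do not give the place of the edit in each gene. The 8 stem cell markers, Pou5f1 and Nanog among them, summed to 4893 to 8483 FPKM, with none below 0.1 FPKM. The sum was highest in Mff-/-, where 5 of the 8 lay above control and 3 below. Dppa5a, the most abundant, had 5551 FPKM there against 3178 in control, and Pou5f1 had 1753 against 1208. Less the median of genes of like transcript length, the Mff-/- difference of Dppa5a went from 0.80 to 0.28. Nanog was lowest in Mff-/- (178 FPKM, control 221) and above control in Dnm1l-/- (437) and Fis1-/- (389). The 15 fibroblast markers summed to 21.1 FPKM in control, 24.3 without Dnm1l, 25.3 without Fis1 and 37.2 without Mff, with 1 of them, Lum, below 0.1 in each library. Of the 6 fibroblast markers with a mean of at least 1 FPKM, 4 were at least 1.5-fold higher in Mff-/- (10.8% of all compared genes were). Below control was 1 of the 6, Fbln1, at 6.97 FPKM in control and 4.74 in Mff-/-. The part of feeder cells in the results below was not tested.

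Of the 37 genes, 30 were at 10 FPKM or more in every library and 7 at 100 FPKM or more. Hspa9, the matrix Hsp70 that pulls precursors inward, had the highest mean level of the 37 (302 FPKM), followed by Timm23, the channel subunit of the inner membrane translocase (214 FPKM). Mtx3, a metaxin of the SAM complex, had the lowest (1.42 FPKM). The plot of levels by library shows all 37 genes.

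**Figure D1:**
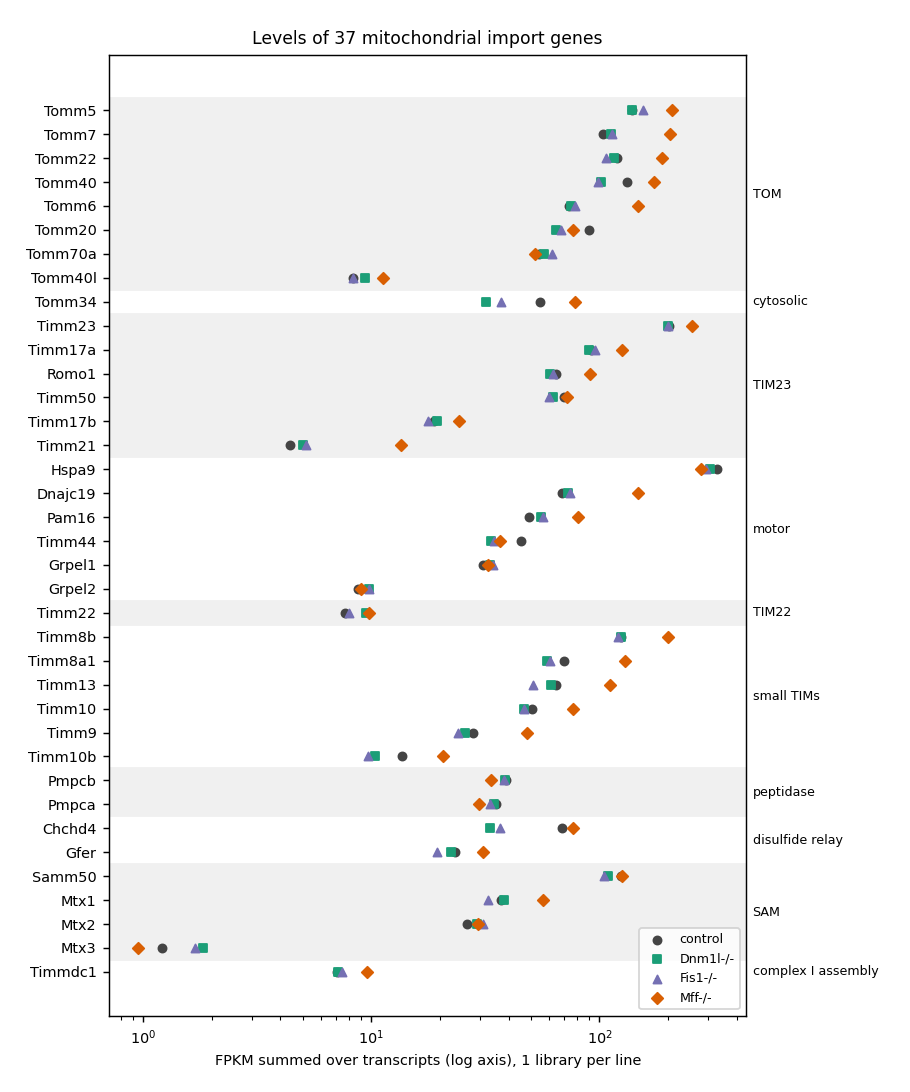
Level of each of the 37 import genes (horizontal log axis, FPKM summed over transcripts), grouped by complex, with 1 point per library. Diamonds (Mff-/-) are the highest point for 27 of 37 genes, and the squares and triangles of Dnm1l-/- and Fis1-/- lie below the control circle for Chchd4 and Tomm34.

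In the library of cells without Dnm1l, 2 of the 37 import genes were at least 1.5-fold lower than in control (7.25% of all compared genes were) and 0 at least 1.5-fold higher (6.4% of all). At a threshold of 2-fold, 1 was lower (2.09% of all) and 0 higher (2.51% of all). The median difference of the 37 genes was -0.02, against 0.01 over all compared genes, and 16 lay above control. In Fis1-/-, 1 import gene was at least 1.5-fold lower (6.93% of all) and 0 at least 1.5-fold higher (5.55% of all), with 0 at 2-fold in either direction (1.89% of all lower, 1.8% higher). The median there was -0.05, against 0.01 over all compared genes, and 15 lay above control. These counts of 0 to 2 genes lie at or near the shares over all genes and are no result about the import genes as a group. In bulk RNA, fewer cells of a type and less RNA per cell cannot be told apart.

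The gene with the widest difference among the 37 in both libraries was Chchd4, which encodes the oxidoreductase (Mia40 in yeast) at the core of the disulfide relay. Chchd4 was at 68.7 FPKM in control, 33.1 without Dnm1l, 36.5 without Fis1 and 76.4 without Mff. The Dnm1l-/- and Fis1-/- libraries were both low, at 48.1% and 53.1% of the control level, and the Mff-/- library was close to control. The differences were -1.03, -0.90 and 0.15 in the same order, with a counting error of at most 0.05. Gfer, the sulfhydryl oxidase that reoxidizes the Chchd4 protein, was at 23.2 FPKM in control, 22.3 without Dnm1l, 19.4 without Fis1 and 31.0 without Mff. Gfer stayed within 1.5-fold of control in all 3 knockouts.

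The other import gene below the threshold was Tomm34, which encodes a cytosolic co-chaperone of Hsp70 and Hsp90 named for its tie to import. Tomm34 was at 54.8 FPKM in control, 31.7 without Dnm1l, 36.98 without Fis1 and 77.9 without Mff, with differences of -0.77, -0.56 and 0.50. It was low in Dnm1l-/- and Fis1-/- and high in Mff-/-, and its differences in Fis1-/- and Mff-/- fell short of the 1.5-fold threshold (0.58 in size). The lower levels of Chchd4 in both libraries and of Tomm34 in Dnm1l-/- remained past 1.5-fold under all 13 alternative settings tried. The Dnm1l-/- difference of Chchd4 ranged from -1.14 to -0.90 over them, that in Fis1-/- from -1.01 to -0.76, and that of Tomm34 in Dnm1l-/- from -0.79 to -0.70. Some of these settings could not move the values. The other filters left them unchanged, and Chchd4 has 1 listed transcript, so the choice of transcripts could not change it. Both transcripts of Tomm34 are coding, so the limit to coding transcripts could not change it either.

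The 250 bases upstream of the RefSeq start (assembly GRCm38.p6, 5′ to 3′ on the strand of the gene) are shown for these genes because no other import gene passed the threshold downwards. Chchd4 is on the minus strand of chromosome 6, with the window at chr6:91473424-91473673, and Tomm34 on the minus strand of chromosome 2, with the window at chr2:164071170-164071419. Capitals mark CG dinucleotides, 22 upstream of Chchd4 and 16 upstream of Tomm34, against a median of 6 over 32851 promoters and 15 over the 34 promoters of 32 import genes.
Chchd4: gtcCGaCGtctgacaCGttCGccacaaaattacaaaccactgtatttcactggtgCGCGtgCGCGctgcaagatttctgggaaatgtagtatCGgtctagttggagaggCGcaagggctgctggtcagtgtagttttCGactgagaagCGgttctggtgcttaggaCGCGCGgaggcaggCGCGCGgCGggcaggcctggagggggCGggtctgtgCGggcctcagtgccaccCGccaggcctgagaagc
Tomm34: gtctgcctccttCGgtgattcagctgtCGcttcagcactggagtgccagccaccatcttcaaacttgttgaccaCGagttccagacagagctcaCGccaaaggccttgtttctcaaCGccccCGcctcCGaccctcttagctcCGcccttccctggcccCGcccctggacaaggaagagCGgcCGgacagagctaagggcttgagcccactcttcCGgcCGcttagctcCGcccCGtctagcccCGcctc

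The TOM complex of the outer membrane showed no gene past 1.5-fold in Dnm1l-/- or Fis1-/-, and its 8 genes had median differences of 0.02 and 0.05. Tomm40, the pore-forming barrel, was at 133 FPKM in control, 101 without Dnm1l, 98.4 without Fis1 and 173 without Mff. The Dnm1l-/- and Fis1-/- libraries lay below control for Tomm40 and Mff-/- above it. Its less abundant paralog Tomm40l, the gene of this complex with the lowest mean, was at 8.28, 9.41, 8.29 and 11.3 FPKM in the order control, Dnm1l-/-, Fis1-/- and Mff-/-. The ratio of Tomm40 to Tomm40l was therefore 16.0 in control, 10.7 without Dnm1l, 11.9 without Fis1 and 15.4 without Mff. Tomm20, a receptor for cleavable targeting sequences, was at 90.4, 64.2, 67.5 and 76.4 FPKM in the same order, highest in control. Tomm70a, the receptor for carrier precursors and chaperones, ranged from 52.1 to 61.7 FPKM. Of the exon bases of Tomm40l, 45.5% are shared with Nr1i3 on the opposite strand, which was at 0 to 0.154 FPKM.

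In Mff-/- the small TOM subunits and the receptor Tomm22 were high. Tomm6, which helps to assemble the complex, was at 73.5 FPKM in control, 75.4 without Dnm1l, 78.4 without Fis1 and 148 without Mff, 2.01 times control. Tomm7, another small subunit, was at 104, 113, 114 and 205 FPKM in that order, 1.97 times control in Mff-/-. Tomm22, the central receptor that links the pores, was at 120, 115, 107 and 187 FPKM. For these 3 genes the Mff-/- library stood alone and the other 3 libraries lay close together. Tomm5, the gene of this complex with the highest mean, was at 139, 139, 155 and 207 FPKM and ended just under the 1.5-fold threshold in Mff-/-, with a difference of 0.57. Less the median of genes of like transcript length, the Mff-/- differences of Tomm6, Tomm7, Tomm22 and Tomm5 were 0.58, 0.72, 0.22 and 0.05. Only that of Tomm7 stayed past 1.5-fold, and that of Tomm6 fell just short. Of the exon bases of Tomm6, 81.7% are shared with the gene model Gm21981 on the same strand and 27.3% with the antisense Tomm6os (2.05 to 3.38 FPKM), so its level is uncertain to that extent.

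The 6 genes of the TIM23 translocase were within 1.5-fold of control in Dnm1l-/- and Fis1-/-, with medians of -0.03 and -0.03. Timm23 was at 202 FPKM in control, 200 without Dnm1l, 200 without Fis1 and 254 without Mff. The paralogs Timm17a and Timm17b, alternative partners of the Timm23 protein in the translocase, kept a near-constant ratio of 4.89 in control, 4.62 without Dnm1l, 5.38 without Fis1 and 5.16 without Mff. Timm17a was at 91.9, 89.6, 95.7 and 126 FPKM and Timm17b at 18.8, 19.4, 17.8 and 24.3 FPKM in the same order.

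Timm21, a subunit that contacts the TOM complex and the respiratory chain, had the widest difference of all import genes in Mff-/-. It was at 4.42 FPKM in control, 5.0 without Dnm1l, 5.18 without Fis1 and 13.4 without Mff. Its level in Mff-/- was 3.04 times that in control, a difference of 1.42 with a counting error of 0.11, and the other 3 libraries lay close together. Timm21 also had the lowest mean level of the translocase genes. Timm50, the receptor that takes over precursors in the intermembrane space, was at 69.8, 62.5, 60.1 and 71.8 FPKM in the order control, Dnm1l-/-, Fis1-/- and Mff-/-. Romo1, a small subunit of the translocase, was at 64.7, 60.8, 62.6 and 90.8 FPKM, high in Mff-/- but short of 1.5-fold.

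The motor genes were split in Mff-/-. Dnajc19 and Pam16, which encode the J-protein that stimulates the motor Hsp70 and its J-like partner, were both high. Dnajc19 was at 68.6 FPKM in control, 73.0 without Dnm1l, 74.6 without Fis1 and 148 without Mff, 2.16 times control, and Pam16 was at 49.0, 55.5, 56.5 and 80.9 FPKM. The Mff-/- library again stood alone. Hspa9 itself was at 328, 306, 293 and 279 FPKM in the same order and Timm44, its anchor at the channel, at 45.3, 33.6, 34.4 and 36.8 FPKM, both highest in control. The nucleotide exchange factors Grpel1 and Grpel2 held a ratio of 3.52 in control, 3.38 without Dnm1l, 3.50 without Fis1 and 3.62 without Mff. Grpel1 ranged from 30.8 to 34.1 FPKM and Grpel2, the gene of the motor with the lowest mean, was at 8.74, 9.81, 9.74 and 8.98 FPKM in the same order. The median of the 6 motor genes in Mff-/- was 0.06. Dnajc19 and Pam16 have the shortest transcripts of the 6 (686 and 552 bases). Less the median of genes of like transcript length, their Mff-/- differences were 0.57 and 0.19. Those of Grpel1, Grpel2, Hspa9 and Timm44 (1782 to 4046 bases) were 0.23, 0.19, -0.14 and -0.36, so Pam16 no longer stood apart from Grpel1 and Grpel2.

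The 6 small TIM genes were high together in Mff-/-: all 6 lay above control and 5 of 6 were at least 1.5-fold higher (10.8% of all compared genes, and 35.1% of those with transcripts of up to 1304 bases, were), with a median of 0.72. With libraries rescaled to the mean total or to TPM, Timm8a1 and Timm13 were still past 1.5-fold, and less the median of genes of like transcript length only 1 of 6 was, Timm8a1. Timm8a1, whose human counterpart is mutated in deafness-dystonia syndrome, was at 69.7 FPKM in control, 58.8 without Dnm1l, 60.8 without Fis1 and 130 without Mff, 1.86 times control. Its partner Timm13, which forms a hexamer with it for Timm23 precursors, was at 64.4, 61.4, 51.3 and 111 FPKM, and Timm8b, the paralog of Timm8a1 and the small TIM with the highest mean, at 124, 124, 120 and 200 FPKM. For each of these genes the Mff-/- library was the highest and control the next. The ratio of Timm8a1 to Timm8b was 0.562 in control, 0.475 without Dnm1l, 0.505 without Fis1 and 0.650 without Mff.

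Timm9 and Timm10, which form the main carrier chaperone hexamer, were at 28.0, 25.7, 23.9 and 48.0 FPKM and at 50.4, 46.8, 46.9 and 76.6 FPKM in the order control, Dnm1l-/-, Fis1-/- and Mff-/-. Their ratio was 0.556, 0.549, 0.511 and 0.626. Timm10b, which docks that hexamer on TIM22 and had the lowest mean of the small TIMs, was at 13.6, 10.3, 9.63 and 20.7 FPKM and lay just under the threshold in Mff-/- with a difference of 0.56. In Dnm1l-/- and Fis1-/- all 6 small TIMs lay below control, none by 1.5-fold, with medians of -0.11 and -0.21. These small differences did not keep their sign throughout: Timm9 was above control in its most abundant transcript, at 0.47 and 0.21. Timm8b was above control in both libraries when rescaled to the mean total or to TPM or less the length bin median, and in Dnm1l-/- also when rescaled without the 1% most abundant genes. Timm13 was above control in Dnm1l-/- less the GC bin median. Timm22, the channel for carrier proteins, was at 7.66, 9.51, 7.95 and 9.80 FPKM and stayed within 1.5-fold of control in every knockout. Timm8b shares 15.6% of its exon bases with Nkapd1 on the opposite strand. How reads shared between close copies such as Timm8a1 and Timm8a2 were divided is not stated in the sources used here.

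The upstream windows of Timm8a1, Timm13 and Timm8b are shown because these small TIM genes were high together in Mff-/- and because the latter pair hold a searched motif. Timm8a1 lies on the minus strand of chromosome X (chrX:134541671-134541920), Timm13 on the minus strand of chromosome 10 (chr10:80900970-80901219) and Timm8b on the plus strand of chromosome 9 (chr9:50603651-50603900), all in GRCm38.p6 and 5′ to 3′ on the strand of the gene. The RefSeq start of Timm8a1 lies 41 bases upstream of the start in the deposited table. Capitals again mark CG dinucleotides, of which there are 29, 11 and 14.
Timm8a1: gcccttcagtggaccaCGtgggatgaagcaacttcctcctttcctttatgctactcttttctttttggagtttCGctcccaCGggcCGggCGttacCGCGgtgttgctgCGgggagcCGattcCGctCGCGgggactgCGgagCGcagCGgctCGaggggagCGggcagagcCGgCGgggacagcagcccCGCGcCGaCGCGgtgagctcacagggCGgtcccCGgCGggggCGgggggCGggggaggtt
Timm13: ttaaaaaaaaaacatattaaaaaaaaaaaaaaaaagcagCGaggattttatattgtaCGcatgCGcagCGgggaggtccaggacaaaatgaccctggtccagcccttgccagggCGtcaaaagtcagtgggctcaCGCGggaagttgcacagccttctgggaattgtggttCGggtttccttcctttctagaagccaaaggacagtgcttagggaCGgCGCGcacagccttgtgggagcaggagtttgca
Timm8b: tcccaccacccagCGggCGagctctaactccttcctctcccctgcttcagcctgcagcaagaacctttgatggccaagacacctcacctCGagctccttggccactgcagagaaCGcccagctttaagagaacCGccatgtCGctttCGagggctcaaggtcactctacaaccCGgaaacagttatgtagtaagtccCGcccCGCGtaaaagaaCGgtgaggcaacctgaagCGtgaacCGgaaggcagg

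Motifs of 3 factors known to regulate nuclear genes for mitochondria, NRF1, ERR and YY1, were searched on both strands from 250 bases before to 50 after the start. The NRF1 palindrome of 10 bases was in 0 of 34 import gene promoters and in 0.971% of 32851. The NRF1 core GCGCATGC, which lies within that palindrome and was added after the data were seen, was in 2 of 34, Grpel1 and Timm13, and in 2.71% of all. In Timm13 it reads GCATGCGC on the strand of the gene and begins at position -192, counted from 0 at the start base. The ERR motif TCAAGGTCA was in 1 of 34, Timm8b at position -96, and in 0.423% of all. The YY1 motif AAGATGGCG was in 3 of 34, beginning at positions 11 in Mtx1, 11 in Timm50 and 16 in Mtx3, and in 1.40% of all. Such matches describe letters in a window and not bound sites. Positions count from the RefSeq start. The nearest such start lies 428 bases from the start of the deposited transcript for Mtx1, 19 for Mtx3 and 0 for Timm50. Among the genes with the YY1 letters, the Mff-/- differences were 0.60 for Mtx1, 0.04 for Timm50 and -0.18 for Mtx3. Less the median of genes of like transcript length they were 0.46, -0.21 and 0.18. A tie between the letters and the levels was not tested.

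The peptidase and the SAM complex showed smaller differences. Pmpca and Pmpcb, the subunits of the matrix peptidase that cuts off targeting sequences, were at 35.1 and 38.8 FPKM in control, 34.6 and 38.4 in Dnm1l-/-, 33.0 and 38.2 in Fis1-/- and 29.7 and 33.5 in Mff-/-. Both were lowest in Mff-/-, none by 1.5-fold, and their ratio held at 0.905, 0.901, 0.865 and 0.887 in the same order. Pmpca shares 25.0% of its exon bases with Inpp5e on the opposite strand (10.99 to 18.3 FPKM). Samm50, the barrel that inserts other barrels into the outer membrane, was the most abundant SAM gene, at 125, 109, 104 and 126 FPKM in the order control, Dnm1l-/-, Fis1-/- and Mff-/-.

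Of its partners the metaxins, Mtx1 was at least 1.5-fold higher in Mff-/-, at 36.9 FPKM in control, 38.1 without Dnm1l, 32.5 without Fis1 and 56.6 without Mff. Mtx2 ranged from 26.2 to 30.7 FPKM. Mtx3 was at 1.21, 1.83, 1.68 and 0.952 FPKM. Mtx3, the least abundant of the 37, was at 152% and 139% of its control level in Dnm1l-/- and Fis1-/-, with differences of 0.36 and 0.28 that did not reach the threshold. The ratio of Mtx1 to Mtx3 ran from 30.6 in control to 20.8 in Dnm1l-/-, 19.4 in Fis1-/- and 59.5 in Mff-/-. Their transcripts differ in length, with 1522 bases for Mtx1 and 6275 for Mtx3. Less the median of genes of like transcript length, their Mff-/- differences were 0.46 and 0.18, both above 0. Timmdc1, named like a TIM but an assembly factor of complex I, was at 7.11, 7.12, 7.47 and 9.55 FPKM in the same order.

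**Figure D2:**
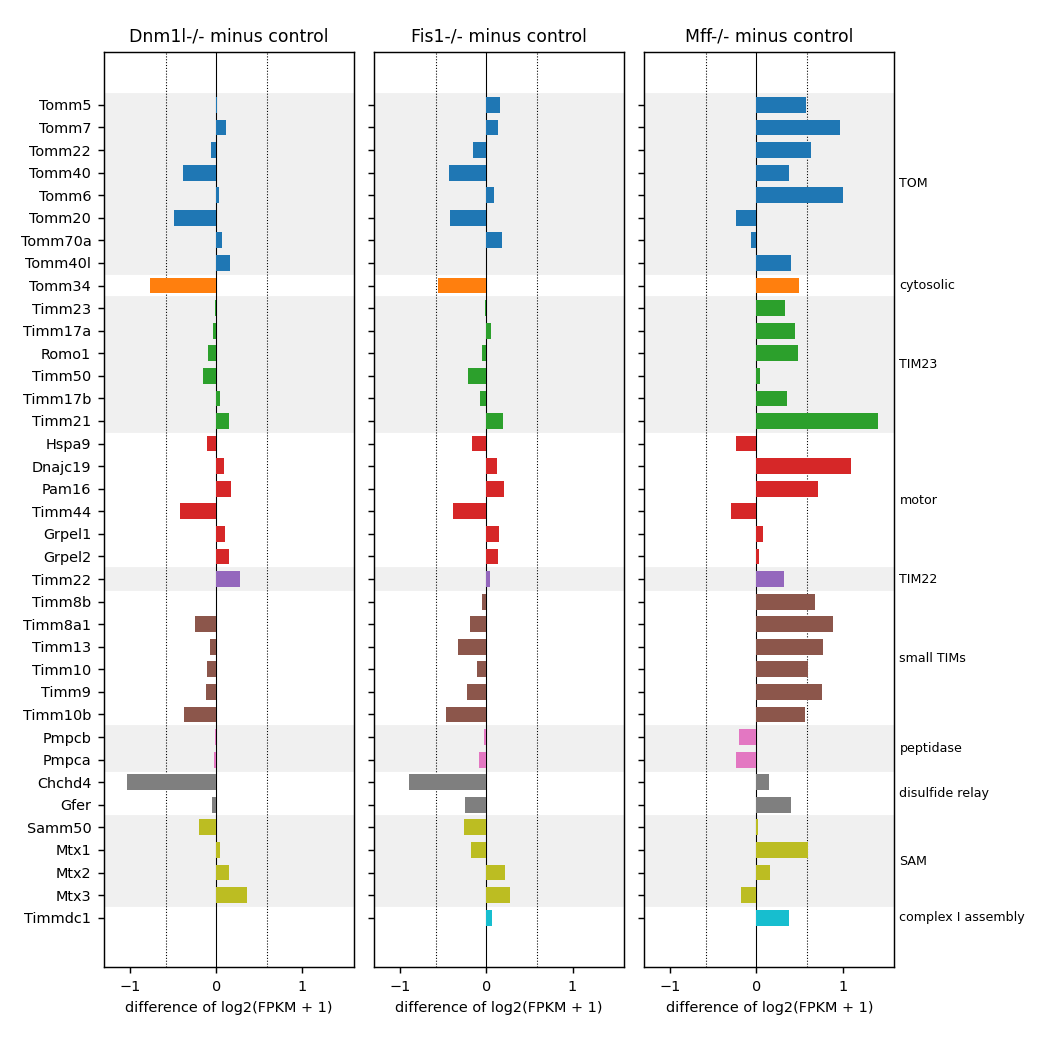
Difference of log2(FPKM + 1) from control for each import gene in each knockout, in bars coloured by complex, with dotted lines at 1.5-fold. Chchd4 and Tomm34 pass the lower line in Dnm1l-/- and Chchd4 passes it in Fis1-/-, while 12 genes pass the upper line in Mff-/- and 0 the lower.

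Counted over all 37 genes, the Mff-/- library held 12 at least 1.5-fold higher than control (10.8% of all compared genes were), namely Tomm6, Tomm7, Tomm22, Timm21, Pam16, Dnajc19, Timm8a1, Timm8b, Timm9, Timm10, Timm13 and Mtx1. None was at least 1.5-fold lower (0 of 37, against 13.1% of all). At 2-fold, 2 were higher (2.61% of all), Timm21 and Dnajc19, and 0 lower (2.89% of all). The median difference was 0.40, against -0.07 over all compared genes, and 30 of 37 genes lay above control. Those just inside the 1.5-fold threshold of 0.58 were Timm10 and Mtx1 (0.60 each), and those just outside were Tomm5 (0.57) and Timm10b (0.56).

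The order of the 4 libraries can be given without reference to control. Mff-/- was the highest library for 27 import genes (73.0%), against 34% of all compared genes. It was the lowest for 5 (13.5%), against 43.1% of all. Control was highest for 5 import genes and lowest for 12, Dnm1l-/- highest for 2 and lowest for 8, and Fis1-/- highest for 3 and lowest for 12.

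The Mff-/- differences depended on how libraries were scaled. FPKM totals were 623295 in control, 620688 without Dnm1l, 597917 without Fis1 and 707731 without Mff, so that the Mff-/- library carried more FPKM in sum. Rescaling to the mean total moved the median difference of all compared genes in Mff-/- by -0.15, rescaling to TPM (a common total) by -0.16 and rescaling without the 1% most abundant genes by -0.13. Over all genes the share of calls that were higher, 45.1% on the deposited scale (1154 higher and 1402 lower), went to 22.5%, 23.1% and 25.0%. Of the 12 import genes, Tomm6, Tomm7, Timm21, Dnajc19, Timm8a1 and Timm13 remained at least 1.5-fold higher under all 3 rescalings, and Timm9 under the third. The number of import genes above control went from 30 to 24, 24 and 25, as Timm50, Grpel1, Grpel2, Chchd4 and Samm50 went below it under all 3 and Mtx2 under the first and second. The Mff-/- medians of the motor and SAM genes turned negative under all 3 rescalings, to between -0.12 and -0.09 for the motor and between -0.09 and -0.07 for SAM.

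The differences in Mff-/- went with transcript length. Import genes have short transcripts, with a median length of 1315 bases for the most abundant transcript against 2685 over all compared genes. Over all 10688 genes, Spearman's rho between length and difference was -0.46 in Mff-/-, 0.05 in Dnm1l-/- and 0.15 in Fis1-/-, and over the 37 import genes it was -0.71, 0.13 and -0.01. These are correlations across genes of the same libraries, which are not independent replicates. Over 20 bins of equal numbers of genes, the median difference of all genes in Mff-/- ran from 0.52 in the bin of the shortest transcripts to -0.37 in that of the longest. The other 2 knockouts had a trend with transcript GC content instead. From the lowest to the highest of 20 GC bins the medians ran from 0.18 to -0.27 in Dnm1l-/- and from 0.23 to -0.25 in Fis1-/-. In Mff-/- they ran from -0.16 to 0.08. What sets these trends was not tested.

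**Figure D3:**
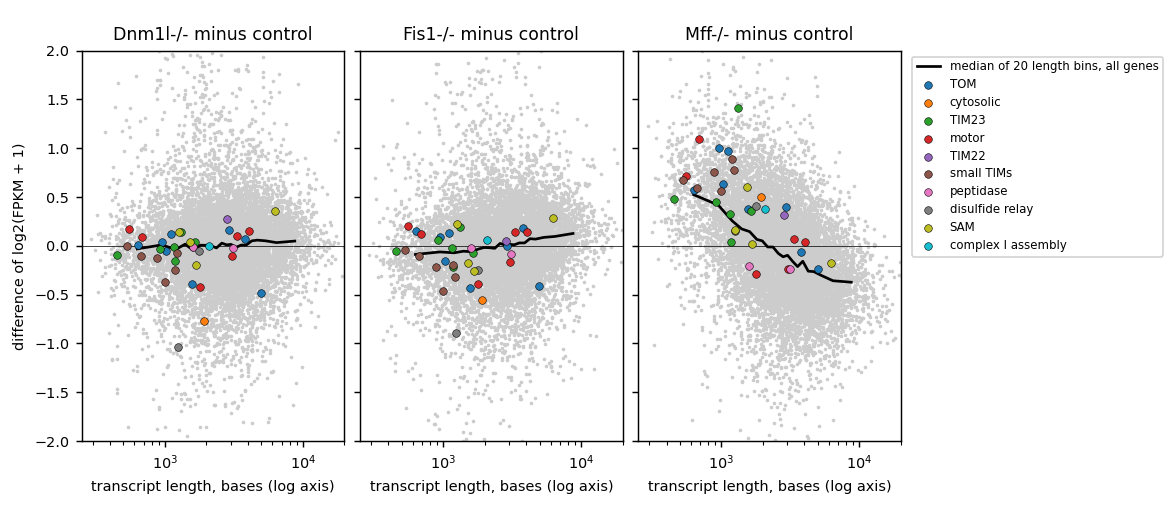
Difference of log2(FPKM + 1) from control (vertical) against the length of the most abundant transcript (horizontal, log axis) for all compared genes (grey), import genes (coloured by complex) and the median of 20 length bins (line). The line is nearly flat in Dnm1l-/- and Fis1-/- and slopes from 0.52 to -0.37 in Mff-/-, where most import genes lie at its short end.

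Among the 18 import genes in the 3 shortest bins, up to 1304 bases, 10 (55.6%) were at least 1.5-fold higher in Mff-/-, against 35.1% of the 1608 genes of those bins. Their median was 0.62, against 0.40. Of the 19 import genes with longer transcripts, 2 were at least 1.5-fold higher, Timm21 and Mtx1, and the median was 0.08. With the median of its length bin subtracted from each difference, 3 import genes remained past 1.5-fold in Mff-/-: Timm21 at 1.24, Tomm7 at 0.72 and Timm8a1 at 0.63. The median of the 37 went to 0.19, with 28 above 0, that of the small TIMs to 0.25, that of TOM to 0.23 and that of TIM23 to 0.05. All 18 import genes of the short bins lay above control in Mff-/-, but some lay under the median of their length bin. Less that median, Timm50 (1179 bases) was at -0.21 and Chchd4 (1245 bases) at -0.10. Mtx2 (1258 bases) was at -0.095 and Romo1 (452 bases) at -0.04. What sets the slope with length in the Mff-/- library was not tested.

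Other nuclear genes for mitochondria with short transcripts were set beside the import genes. Of 76 mitochondrial ribosomal protein genes (median length 1048 bases), 34 were at least 1.5-fold higher in Mff-/- (10.8% of all compared genes, and 35.1% in the 3 shortest bins, were) and the median was 0.52. Less the length bin median, 12 were and the median was 0.23. Of 38 nuclear complex I subunit genes (median length 646 bases), 11 were at least 1.5-fold higher in Mff-/- and the median was 0.46. Less the length bin median, 1 was and the median was 0.00. In Dnm1l-/- and Fis1-/- the medians were -0.01 and -0.10 for the ribosomal genes and -0.04 and -0.14 for complex I. No difference between these lists and the import genes was tested.

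The median difference of the genes on chromosome 8 was low in all 3 knockouts, and 2 import genes lie there. Over 594 genes of that chromosome it was -0.30 in Dnm1l-/-, -0.29 in Fis1-/- and -0.33 in Mff-/-. Over the 18 other autosomes the medians ran from -0.13 to 0.10, from -0.14 to 0.10 and from -0.23 to 0.04 in the same order. The import genes on chromosome 8 are Tomm20 and Timm44, the receptor and the motor anchor that were highest in control. Less the chromosome median, the differences of Tomm20 became -0.18, -0.12 and 0.09 and those of Timm44 -0.12, -0.09 and 0.04. Chchd4 lies on chromosome 6, which had the lowest median of the other autosomes in each knockout, and less that median its differences were -0.90, -0.76 and 0.38. What sets the chromosome medians was not tested.

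**Figure D4:**
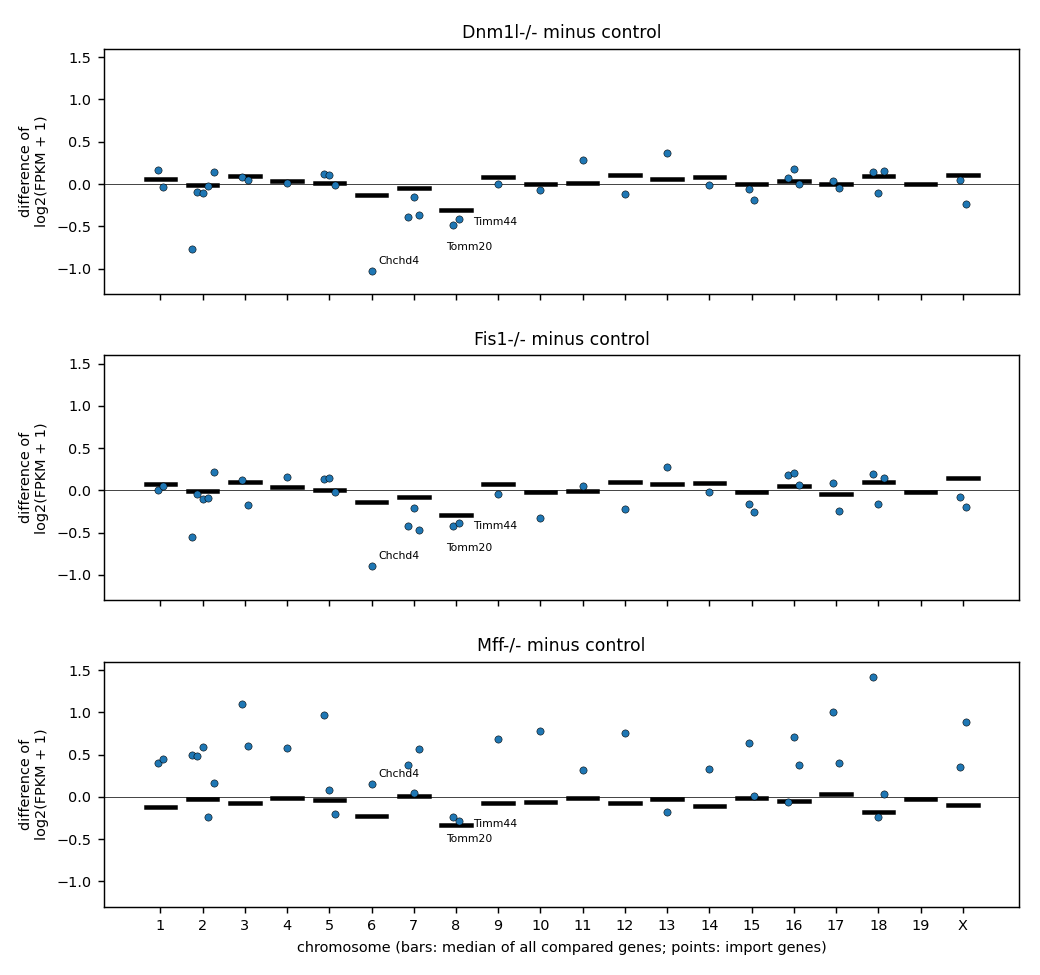
Difference of log2(FPKM + 1) from control of each import gene (points) by chromosome (horizontal), with the median of all compared genes of the chromosome (bars). The chromosome 8 bar lies near -0.30 in each panel and Tomm20 and Timm44 lie near it, while Chchd4 lies well under the chromosome 6 bar in Dnm1l-/- and Fis1-/-.

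The authors' table lists 2 or more transcripts for 9 import genes and 1 for 28. Timm9 showed a shift between its transcripts. Its 797-base transcript was at 12.9 FPKM in control, 7.16 without Dnm1l, 7.44 without Fis1 and 23.1 without Mff, its 883-base transcript at 10.9, 15.5, 12.8 and 23.9 FPKM, and its 981-base transcript at 3.18, 2.31, 3.16 and 0.590 FPKM. The shortest was thus low in Dnm1l-/- and Fis1-/-, and the 981-base transcript was low in Mff-/- where the gene's sum was highest. In Tomm34 and Tomm40 too the shorter transcript was higher and the longer lower in Mff-/- than in control. The 1923-base transcript of Tomm34 went from 49.2 FPKM in control to 74.1 in Mff-/- and its 2302-base transcript from 5.65 to 3.82, and the 1568-base transcript of Tomm40 went from 120 to 164 and its 1666-base transcript from 12.4 to 8.97. The mean transcript length weighted by FPKM was shorter than in control in Dnm1l-/- for 4 of the 9 genes, in Fis1-/- for 2 and in Mff-/- for 5. The division of fragments among overlapping transcripts is an estimate of the authors' quantification, with no error given.

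**Figure D5:**
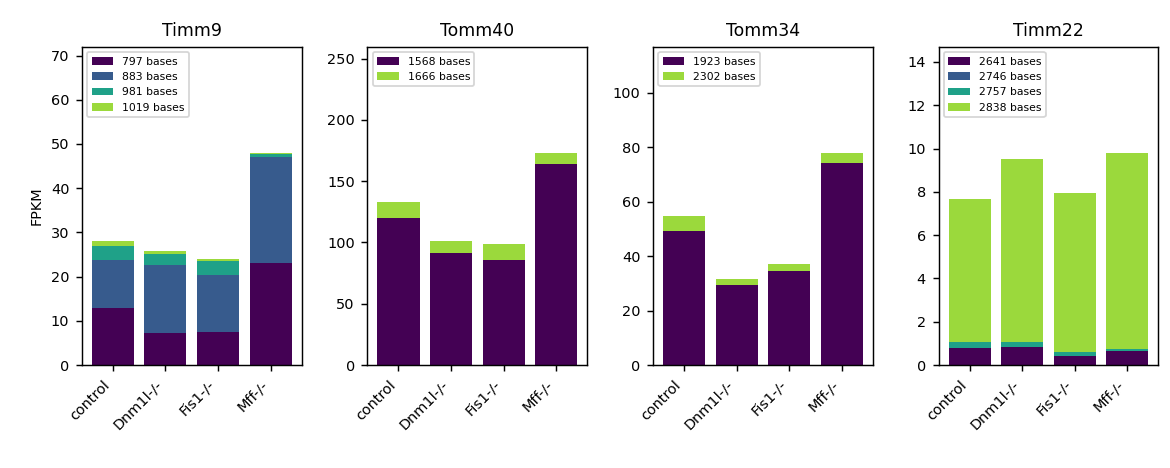
Level (FPKM, vertical) of each listed transcript of Timm9, Tomm40, Tomm34 and Timm22, stacked by library. Most of each sum lies in 1 or 2 transcripts, and the longer Timm9 transcripts make up a smaller part of the sum in Mff-/- than in control.

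Of 17 further genes of import and sorting, 16 were compared. In Dnm1l-/- and in Fis1-/- 1 was at least 1.5-fold higher and in Mff-/- 2, with 0 lower in any, and the medians were 0.00, 0.06 and 0.13. The counts of higher genes are near the shares over all compared genes, 6.4%, 5.55% and 10.8%, and are no result about the list. The gene that was higher in both Dnm1l-/- and Fis1-/- was Timm8a2, a close copy of Timm8a1, at 0.278 FPKM in control, 3.15 without Dnm1l, 1.45 without Fis1 and 0.478 without Mff. It was high in the libraries in which Timm8a1 lay below control, but at a level far under that of Timm8a1. Those higher in Mff-/- were Dnajc15, a paralog of Dnajc19, at 26.0, 32.6, 30.2 and 51.6 FPKM, and Hspe1, the co-chaperonin that folds imported proteins with Hsp60, at 503, 455, 444 and 867 FPKM. Its partner Hspd1, the Hsp60 gene itself, was at 335, 323, 330 and 418 FPKM. Both genes that were higher in Mff-/- have short transcripts (648 and 768 bases), and less the median of their length bin their differences of 0.96 and 0.78 became 0.44 and 0.26. Of 10 cytosolic chaperones and targeting factors, 1 was at least 1.5-fold higher in Dnm1l-/- and in Fis1-/- (6.4% and 5.55% of all compared genes were). It was Hsp90aa1, at 1056, 1983, 1676 and 1126 FPKM. In Mff-/- 2 were, Dnaja1 and Btf3 (10.8% of all). These counts too are near the shares over all genes and are no result about the list. Less the median of their length bin, the Mff-/- differences of Dnaja1 and Btf3 went from 0.64 and 0.65 to 0.94 and 0.23. Hsp90aa1 encodes a cytosolic Hsp90, a chaperone to which the Tomm34 protein binds. Hsp90ab1, the other cytosolic Hsp90 gene of the list, was at 2023, 1872, 1853 and 1866 FPKM in the order control, Dnm1l-/-, Fis1-/- and Mff-/-. A tie of either gene to the level of Tomm34 was not tested.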

How the data were processed

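RNA was measured in 4 libraries, grouped by their genotype labels. The authors deposited FPKM values in a table with 1 column per library and with transcript lengths and positions, per the file headers. Per the submitters' processing notes, which give no role or order, the tools were R 3.6.1, StringTie 1.3.3b, STAR 2.5.2b and FastQC 0.11.5, and the genome build was mm10. The sources used here do not say whether quantification used strand, so genes that overlap on opposite strands may share fragments. FPKM scales each library by its own fragments, and abundant transcripts can therefore move the values of the rest. An emptied line (1 in all) was not analysed here, and 1 was added to starts so that positions count from 1.

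FPKM was summed over the transcripts of a symbol. Differences are of log2(FPKM + 1) for protein-coding genes with a mean of at least 1 FPKM, counted at 1.5-fold and 2-fold, with no test. The table gives no counts. Depth was estimated from single-transcript genes of at least 3000 bases, where 88.6% to 92.0% of 537 to 597 low values were within 0.15 of a whole number of fragments. The length and chromosome of a gene are those of its most abundant transcript. The steps were tested on simulated data with known changes. Python 3.11.15, pandas 2.3.3, numpy 2.4.6 and scipy 1.17.1 were used. RefSeq tables (GRCm38.p6) gave promoters and older symbols, 1810026J23Rik standing for Timm29.

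The import genes and all lists were chosen with earlier results of these data known. The genes named with all 4 values were those at least 1.5-fold from control in any knockout, the highest and lowest mean of each complex with 2 or more genes, and the pairs of paralogs or partners. Tomm20, Tomm70a, Timm50, Romo1, Timm44, Timm22, Mtx2, Timmdc1 and the genes outside the 37 other than the targeted ones were named after their values were seen. Alternatives were other pseudocounts, filters, scalings, transcript choices, and subtraction of the median of the length, GC or chromosome bin.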

Additional observations from a re-analysis of the deposited data

How the results depend on the processing

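No paired analysis was possible because each group has 1 library and the results come from no test. Over the alternatives 781 values were recomputed, 660 of which stayed close to the reported value and 121 moved. Some could not move, since another filter leaves the difference of a gene that passes it unchanged. No difference past 1.5-fold changed sign (0), but 20 of 546 values of single genes did, all of genes reported within 0.22 of 0, and 3 of 39 medians: that in Fis1-/- was 0.01 rescaled to the mean total or to TPM, and that in Dnm1l-/- 0.00 less the length bin median. A median counted as moved where it shifted by at least 0.1 on the log2 scale, since no spread between replicates is known, and a count where it changed by over 1.5 times. The difference of a single gene was judged by its shift against its counting error, which leaves out the spread between cultures. Of 205 medians and counts among the 781 values, 183 stayed close and 22 moved. The number of import genes at least 1.5-fold higher in Mff-/-, 12 as deposited, was 6 with libraries rescaled to the mean total, 6 rescaled to TPM, 7 rescaled without the 1% most abundant genes and 3 less the length bin median. The median difference in Mff-/-, 0.40 as deposited, was 0.23, 0.23, 0.25 and 0.19 under the same settings. The number at least 2-fold higher in Mff-/-, 2 as deposited, was 1 under those 4 settings and with a pseudocount of 5 FPKM, and 4 with differences centred on the median of all genes or less the median of the GC bin. The number at least 2-fold lower in Dnm1l-/-, 1 as deposited, was 0 with a pseudocount of 5 FPKM, less the length bin median and less the chromosome median, the last of which was added with the data seen. The number at least 2-fold lower in Fis1-/-, 0 as deposited, was 1 less the median of the GC bin. Import genes lowest in Mff-/-, 5 as deposited, were 9, 9 and 8 under the 3 rescalings. The cause was not tested, beyond the settings' own construction. Depth limits the genes of low level, Mtx3 and Timm21 among them, and the spread between cultures of a line was not measured.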
